A study of Mus musculus with 6 samples.

Results

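Integrins and cadherins are the receptors with which cells hold on to matrix and to each other, and 44 of their genes were followed here among the 18193 genes named on the arrays. The members were chosen by gene symbol alone: 16 integrin alpha subunits, 8 integrin beta subunits and 20 cadherins with a plain number, leaving out Cdh5. Their levels were measured in cells of the mouse embryonic stem (ES) cell line ER71 A17C, derived from strain 129P2/Ola, which carries an Etv2 cassette inducible with doxycycline (ER71 A2Lox.cre). Etv2, a factor of the ETS family, is required to make blood and endothelium. The cells were differentiated as embryoid bodies, aggregates grown in hanging drops, and Flk1-positive cells were sorted on day 3.5. Flk1 is the VEGF receptor encoded by Kdr and is found on early mesoderm. The induced group of 3 samples received doxycycline at 0.5 microg/ml from day 3 for 12 hours, and the control group of 3 samples was untreated according to the series' design text, although the treatment field of every sample carries the same doxycycline text. All 6 samples carry the cassette, all come from the same line, and no doxycycline-treated line without the cassette was analysed here, so effects of doxycycline and of Etv2 cannot be told apart. Nothing in the labels says that the replicates were separate cultures, so the p-values cover only the spread among the 6 samples at hand, possibly a technical one.

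An integrin is a pair of 1 alpha and 1 beta subunit, and the pair decides what it binds: fibronectin, laminin, collagen or counter-receptors on other cells. Classical cadherins bind the same cadherin on the neighbouring cell and are tied to actin through catenins. When epiblast cells leave the epithelium to form mesoderm, E-cadherin (Cdh1) is known to give way to N-cadherin (Cdh2), and fibronectin receptors are needed for the migrating cells. The label of the group speaks of classical cadherins, but the symbol rule also takes in Cdh13, which lacks a membrane-spanning tail, Cdh23 of the inner ear's tip links, and Cdh16, Cdh17 and Cdh26, which lie outside the classical group.

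Kdr, the gene of the sorted protein, stood at log2 levels of 10.02, 8.40 and 10.97 in controls 1, 2 and 3 and at 9.56, 9.36 and 10.52 in induced samples 1, 2 and 3. Etv2 stood at 9.92, 8.59 and 10.71 in controls and at 13.27, 13.28 and 13.36 after induction, the latter all above the former, which is the check of the labels. Its log2 fold change was 3.56 ± 0.44 (SE) and limma's adjusted p 0.388. The array medians lay between 7.34 and 7.40. A mean over 24 mesoderm genes, described further on, ran from 9.10 to 10.24 in controls and from 9.52 to 9.98 in induced samples.

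No integrin or cadherin passed the test between induced and control samples. All values are log2 expression levels as deposited, so a difference of 1 is a doubling. Of the 44 members 27 had a positive and 17 a negative log2 fold change (induced minus control), with a median of 0.039, while 51.1% of all genes were positive and their median was 0.0026. Signs differed with level. Of the 29 members below the median level of all genes 19 were positive, against 5966 of 9097 such genes. Of the 15 members above it 8 were positive, against 3330 of 9096 such genes. None passed limma's test at an adjusted p under 0.05 over all genes, where 0.0055% of genes did (1 of 18193), and 0 members had an unadjusted p under 0.05 against 1.71% of all genes. The fold changes ran from -0.34 for Itga8 to 0.38 for Itga1. Induced and control values did not overlap for 1 member, Itgax, lower after induction, against 6.79% of all genes (2.88% higher and 3.91% lower after induction). These counts take the brightest probe set of each gene. Dimmer probe sets of other members did not overlap either, among them those of Itga1, Itga5 and Itga9 (higher after induction) and Itgb5 (lower). The share of such probe sets over all named probe sets was not computed, so these cases are no result about the members. For 43 of the 44 members the 95% interval of the fold change lay within 1 log2 unit of 0 on both sides, so a doubling or halving is outside these intervals. The exception was Itga8, whose interval ran from -1.05 to 0.37. With 3 samples against 3, the number of arrays limits the precision.

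**Figure D1:**
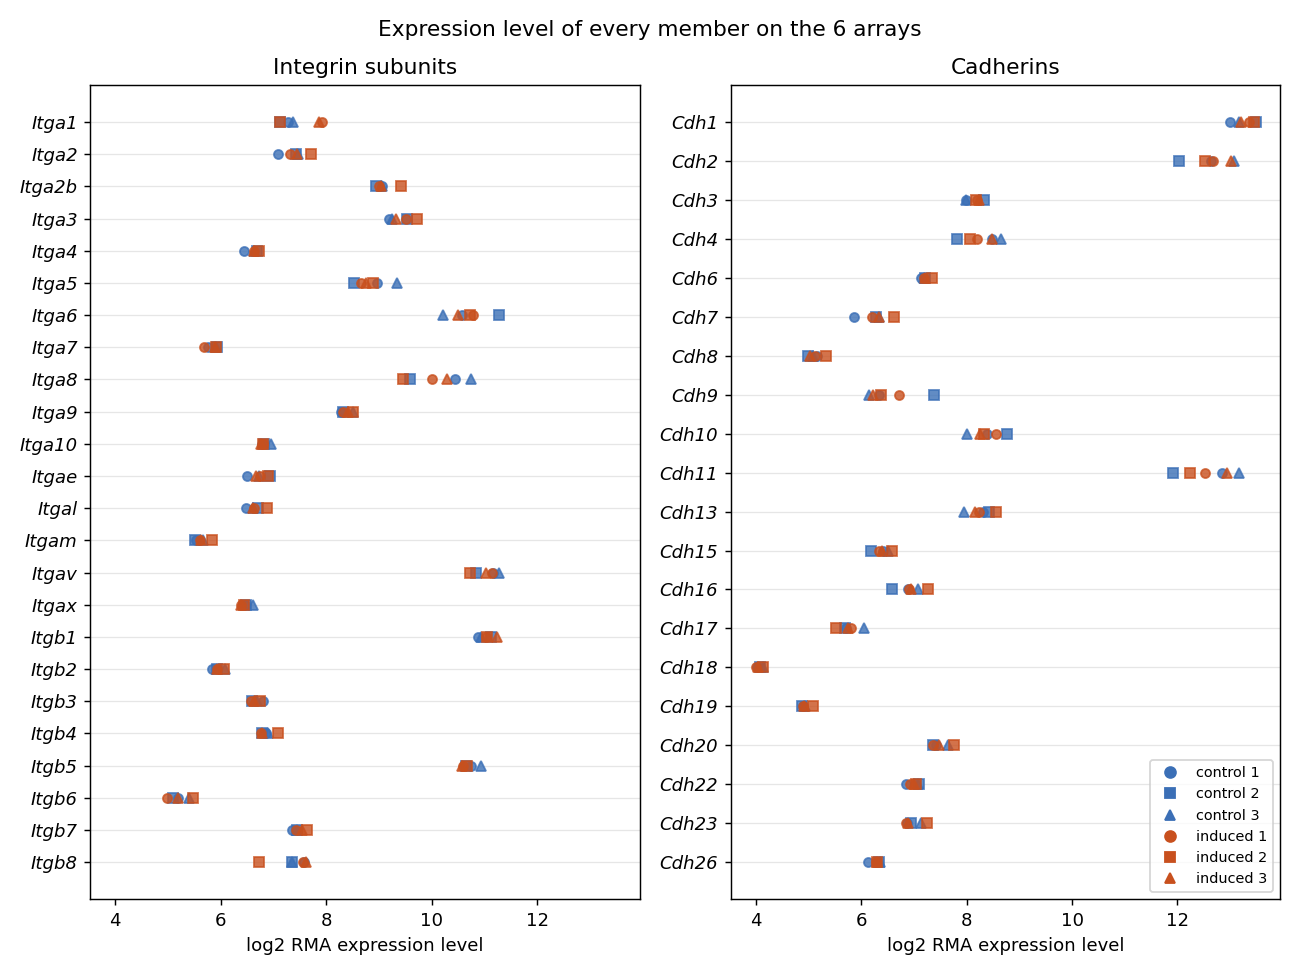
The x axis is the log2 RMA expression level and each row is a gene; blue symbols are the 3 controls, orange symbols the 3 induced samples, and the symbol shape gives the replicate number. For most members the 6 arrays lie close together and the groups are mixed, while Cdh2, Cdh9, Cdh11, Itga6 and Itga8 are spread over more than 1 log2 unit. Levels of different genes come from different probes and are not to be compared.

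The beta subunits, which set the family of the pair, included Itgb1, the partner of most alpha subunits and the chain shared by receptors for fibronectin, laminin and collagen. Itgb1 had log2 levels of 10.88, 11.13 and 10.93 in controls 1, 2 and 3 and of 11.04, 11.05 and 11.24 in induced samples 1, 2 and 3. The groups overlapped, and the log2 fold change was 0.13 ± 0.099 (SE) with a 95% interval from -0.10 to 0.36. Itgb5, a partner of the alpha v chain in a vitronectin receptor, had levels of 10.75, 10.66 and 10.94 in controls and 10.59, 10.67 and 10.57 after induction. On this brightest probe set the log2 fold change was -0.17 ± 0.093 (SE; limma unadjusted p = 0.0987), with induced 2 just above control 2. On each dimmer probe set of Itgb5 all induced values lay below all controls, with log2 fold changes of -0.11, -0.12 and -0.24. Their limma adjusted p was 0.9997 in a fit of all named probe sets, chosen after the data were seen. Itgb3, the partner of Itgav on endothelium and of Itga2b on platelets, had levels of 6.81, 6.60 and 6.69 in controls and 6.57, 6.75 and 6.63 after induction, with a log2 fold change of -0.048 ± 0.089. Itgb7, a leukocyte chain that pairs with Itga4 and Itgae, had levels of 7.35, 7.44 and 7.45 in controls and 7.43, 7.64 and 7.55 after induction, with a log2 fold change of 0.13 ± 0.083. Both sets of values overlapped between the groups.

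Among the alpha subunits that bind fibronectin, Itga5 is the chain of the main fibronectin receptor. Its levels were 8.96, 8.53 and 9.34 in controls and 8.67, 8.88 and 8.76 after induction, so the controls enclosed the induced values, and the log2 fold change was -0.17 ± 0.18 (SE). A dimmer probe set of Itga5 read 6.86, 6.87 and 6.79 in controls and 6.98, 6.96 and 6.90 after induction, without overlap. There the log2 fold change was 0.11 (limma unadjusted p = 0.177, adjusted p = 0.9997 over all named probe sets). On the other dimmer probe sets of Itga5 it was -0.034 and -0.16. Itgav, the alpha v chain, had levels of 11.17, 10.84 and 11.27 in controls and 11.14, 10.73 and 11.03 after induction, a log2 fold change of -0.13 ± 0.14. Itga4, which binds VCAM-1 and fibronectin and is carried by blood cells, had levels of 6.45, 6.69 and 6.64 in controls and 6.63, 6.73 and 6.63 after induction, a log2 fold change of 0.068 ± 0.088. On the brightest probe set of each of the 3 genes the groups overlapped.

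Of the laminin-binding alpha chains, Itga6 is known from epithelia and stem cells. Itga6 had levels of 10.58, 11.27 and 10.21 in controls and 10.79, 10.72 and 10.51 after induction. The controls lay on both sides of the induced samples, and the log2 fold change was -0.0090 ± 0.24 (SE). Itga3, another laminin-binding chain, had levels of 9.20, 9.54 and 9.24 in controls and 9.52, 9.72 and 9.33 after induction, a log2 fold change of 0.19 ± 0.13. Itga8, a chain that binds nephronectin and fibronectin and is known from mesenchyme, had levels of 10.45, 9.59 and 10.74 in controls and 10.01, 9.45 and 10.29 after induction, a log2 fold change of -0.34 ± 0.31.

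Blood and endothelial integrins are of particular interest after induction of Etv2. Itga2b, the CD41 chain that marks early blood progenitors and platelets, had levels of 9.05, 8.94 and 9.05 in controls and 9.01, 9.42 and 9.04 after induction. Induced 2 alone lay above the other arrays, and the log2 fold change was 0.14 ± 0.12 (SE). The collagen-binding chain Itga1 had the highest fold change of the members, 0.38 ± 0.20 (limma unadjusted p = 0.0969, adjusted p = 0.9995). Its levels were 7.28, 7.12 and 7.37 in controls and 7.93, 7.12 and 7.87 after induction, where induced 2 was as low as control 2. A dimmer probe set of Itga1 read 5.39, 5.24 and 5.25 in controls and 5.46, 5.95 and 5.51 after induction, without overlap. There the log2 fold change was 0.34 (limma unadjusted p = 0.0376, adjusted p = 0.9997 over all named probe sets). Itgax, the CD11c chain of dendritic cells, had levels of 6.46, 6.47 and 6.61 in controls and 6.38, 6.45 and 6.39 after induction. On the probe sets used, this was the member with non-overlapping groups. Its log2 fold change was -0.11 ± 0.077 and limma's adjusted p 0.9995. The other leukocyte chains Itgal, Itgam, Itgae and Itgb2 had fold changes between 0.030 and 0.12.

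Markers of the blood and endothelial cells that carry these chains are given beside them. All 12 endothelial markers were measured, 11 of them with a positive log2 fold change and none past the threshold. Of the leukocyte markers 7 of 8 and of the platelet markers 4 of 5 were positive too, as were 5966 of the 9097 genes below the median level, where 11 of the 12 endothelial markers lay. In 2 endothelial markers, Ecscr and Rhoj, all induced values lay above all controls, against 2.88% of all genes. Their log2 fold changes were 0.36 and 0.33 (limma unadjusted p = 0.0087 and 0.0065, adjusted p = 0.9995 for both). The mean log2 level of the endothelial list ran from 6.64 to 6.74 in controls and from 6.76 to 6.93 in induced samples. The 8 leukocyte markers had mean levels from 6.75 to 6.84 in controls and 6.79 to 7.02 in induced samples, and 5 of 7 megakaryocyte and platelet markers were measured, with means from 6.50 to 6.59 and from 6.52 to 6.70. The leukocyte gene Ptprc, present on all white blood cells, stood at 5.30, 5.21 and 5.33 in controls and 5.19, 5.82 and 5.20 after induction. No marker list was at 0, and arrays have no true zero, so low levels cannot be called absent. The part of such cells in the integrin values was not tested, and in sorted bulk samples fewer cells of a type and less RNA per cell cannot be told apart.

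**Figure D2:**
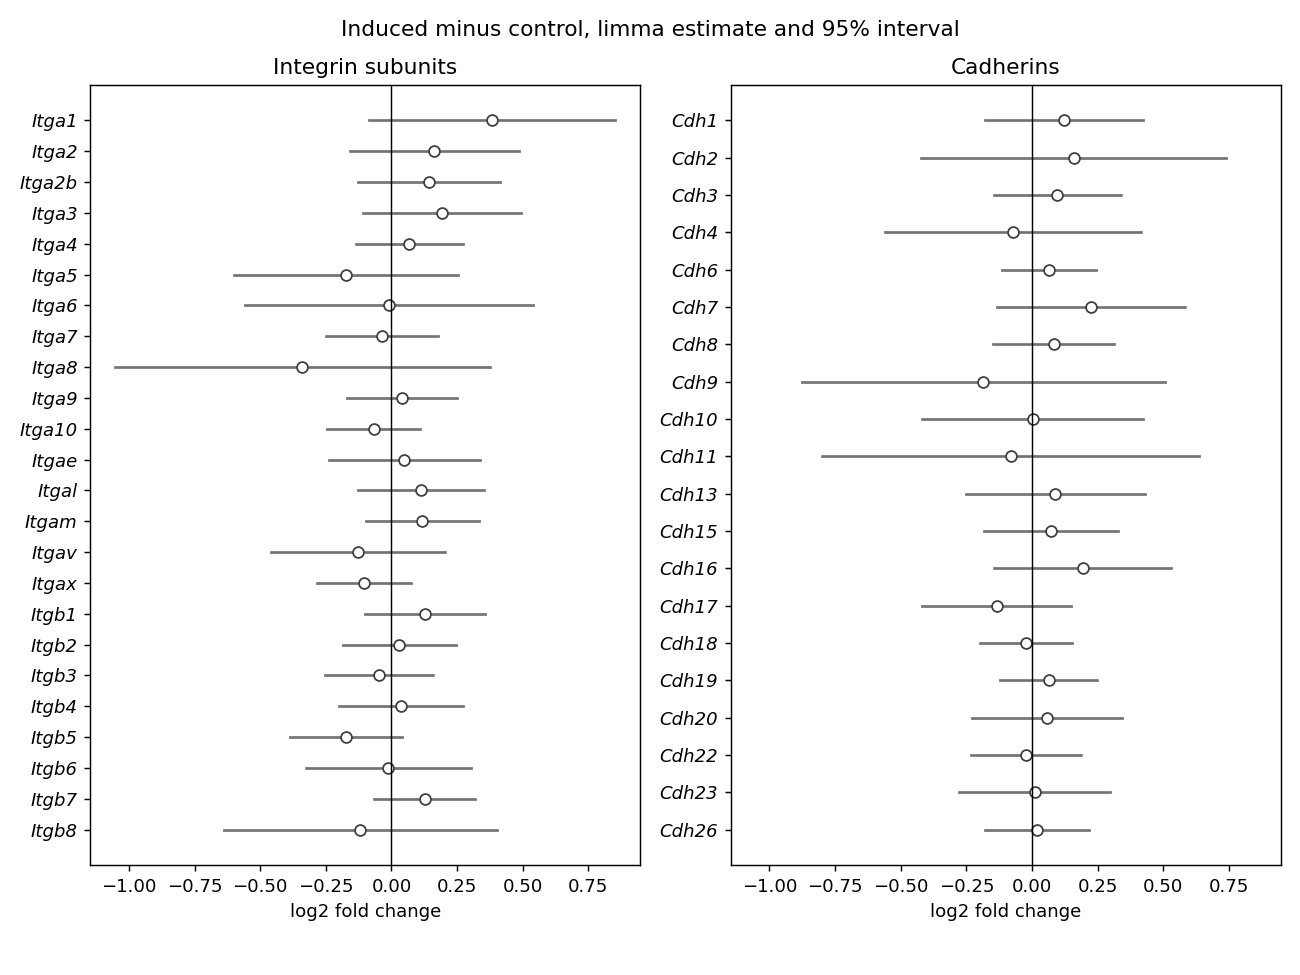
The x axis is the log2 fold change, induced minus control, with limma's estimate as a point and its 95% interval as a line for each member. All 44 intervals include 0, and the widest on the lower side, for Itga8, reaches -1.05.

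The cadherins include epithelial and mesenchymal members, and bulk samples cannot tell whether the same cells carry both. Cdh1, E-cadherin, the adhesion molecule of ES cells and epithelia, had log2 levels of 13.00, 13.48 and 13.17 in controls 1, 2 and 3 and of 13.36, 13.45 and 13.21 after induction. The groups overlapped, with a log2 fold change of 0.12 ± 0.13 (SE). Cdh2, N-cadherin of mesoderm and neural tissue, had levels of 12.63, 12.02 and 13.08 in controls and 12.67, 12.52 and 13.02 after induction, a log2 fold change of 0.16 ± 0.25. Cdh11, known from mesenchyme and bone, had levels of 12.85, 11.92 and 13.17 in controls and 12.53, 12.23 and 12.94 after induction, a log2 fold change of -0.081 ± 0.31. In both mesenchymal genes control 2 was the lowest array and control 3 the highest. Cdh3, P-cadherin of placenta and epithelia, had levels of 7.99, 8.33 and 7.99 in controls and 8.19, 8.18 and 8.23 after induction, a log2 fold change of 0.097 ± 0.11, and its induced values lay within the control range.

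The spread within the groups was therefore larger for some members than any difference between the groups. The range over the 6 arrays reached 1 log2 unit in 5 of the 44 members, namely Cdh2, Cdh9, Cdh11, Itga6 and Itga8, and in 2.33% of all genes. In fold terms the highest array over the lowest was 2.44 for Itga8, 2.39 for Cdh11, 2.37 for Cdh9, 2.09 for Cdh2 and 2.08 for Itga6. The controls had the larger SD in 27 of the 44 members, against 48.4% of all genes. Split by level, this was so in 13 of the 15 members brighter than the median gene, against 58.0% of all such genes, and in 14 of the 29 dimmer members, against 38.9%.

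To describe that spread, each gene was related to how strongly the same array read mesoderm genes. The mesoderm mean is the mean log2 level of 24 genes such as Eomes, Mixl1, Mesp1, Lhx1, Gata4 and Pdgfra. These genes are active in the primitive streak or early mesoderm, and the mean holds no integrin or cadherin. Brachyury, also listed, was not found under the symbol T and is not in the mean. Whether the arrays read it under another symbol was not checked. Not every gene in the mean followed it. Fgf8 ran the other way, at 11.27 in control 2 and 10.8 in control 3. Msgn1 and Meox1 were highest in induced 2 and not in control 3, which had the highest mean. The 3 controls read 10.01, 9.10 and 10.24 for replicates 1, 2 and 3, and the induced samples 9.58, 9.52 and 9.98 in the same order. A slope of 1 means that a gene's level differed by 1 log2 unit between arrays whose mesoderm mean differed by 1 log2 unit, with the group held constant. It was tested with limma over the 18169 genes outside the mean. Gene and mean come from the same arrays, so whatever an array as a whole shares enters both.

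With this measure 4 members had higher levels on arrays with a higher mesoderm mean, Cdh11, Itga8, Cdh2 and Cdh4, and 2 had lower levels, Cdh9 and Itga6. These 6 of 44 members passed an adjusted p under 0.05, against 3.12% of all genes tested (1.4% with a positive and 1.71% with a negative slope). Of the 15 members above the median level 4 passed with a positive and 1 with a negative slope, against 203 and 190 of 9077 such genes. Of the 29 members below it 0 passed with a positive and 1 with a negative slope, against 52 and 121 of 9092 such genes. The median slope of the members was 0.018 and that of all genes 0.010. Of the 44 slopes 25 were above 0, against 53.3% of all genes.

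Cdh11 had a slope of 1.12 ± 0.12 (SE; limma adjusted p = 0.0018). Its levels followed the order of the mesoderm mean within the controls, 11.92, 12.85 and 13.17 in controls 2, 1 and 3, and within the induced samples, 12.23, 12.53 and 12.94 in induced samples 2, 1 and 3. Cdh2 had a slope of 0.88 ± 0.13 (adjusted p = 0.0064) and also kept that order in both groups. Cdh4, R-cadherin, known from retina and kidney, had a slope of 0.74 ± 0.10 (adjusted p = 0.0061), with levels of 8.48, 7.82 and 8.66 in controls and 8.20, 8.07 and 8.48 after induction. Cdh4 kept the order of the mesoderm mean over all 6 arrays.

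Itga8 had a slope of 1.05 ± 0.17 (SE; limma adjusted p = 0.0109) and kept the order within each group, although induced 2 and not control 2 was its lowest array. On the other side, Itga6 had a slope of -0.83 ± 0.12 (adjusted p = 0.0069), and its highest array, control 2, was the one with the lowest mesoderm mean. Cdh9, a cadherin of the nervous system, had a slope of -1.04 ± 0.15 (adjusted p = 0.0065), with levels of 6.34, 7.39 and 6.14 in controls and 6.71, 6.38 and 6.23 after induction. Alone among the 6 members past the threshold, Cdh9 lay below the median gene. Its single probe set had a mean level of 6.53, against 8.25 for the median gene. Control 2 stood apart above the other arrays.

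The sequences before the start of Itga8 and of Cdh9 are shown because these members had slopes of opposite sign and both are held in the RefSeq promoter table (GRCm38.p6). Of the 44 members 28 had an entry there. Each run gives the 250 bases before the start, 5′ to 3′ on the gene's own strand, and the capitals mark CG pairs. Itga8 lies on the minus strand at chr2:12301945-12302194 and Cdh9 on the plus strand at chr15:16728665-16728914.
Itga8: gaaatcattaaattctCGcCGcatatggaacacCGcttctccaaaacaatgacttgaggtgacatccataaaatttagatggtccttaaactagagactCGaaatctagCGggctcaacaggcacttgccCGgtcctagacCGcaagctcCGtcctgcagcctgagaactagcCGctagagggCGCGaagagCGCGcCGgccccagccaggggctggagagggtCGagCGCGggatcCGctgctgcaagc
Cdh9: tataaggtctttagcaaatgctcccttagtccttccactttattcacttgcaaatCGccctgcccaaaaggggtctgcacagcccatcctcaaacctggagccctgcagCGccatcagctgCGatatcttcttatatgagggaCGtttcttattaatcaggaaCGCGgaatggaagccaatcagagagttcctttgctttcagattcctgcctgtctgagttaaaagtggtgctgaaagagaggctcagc
Itga8 holds 18 CG pairs, a number reached by 21.7% of all 32851 promoters of the table, and Cdh9 holds 6, which equals the median. Neither holds CAGGTG, the E-box that Snail factors bind, or CCGGAA, a core bound by ETS factors, on either strand. The E-box was found in 7 of the 32 member promoters, those of Cdh7, Itga3, Itga9, Itgb5, Itgb6 and Itgb8, and in 17.2% of all promoters. The ETS core was found in 1 member promoter, that of Itga3, and in 12.0% of all.

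**Figure D3:**
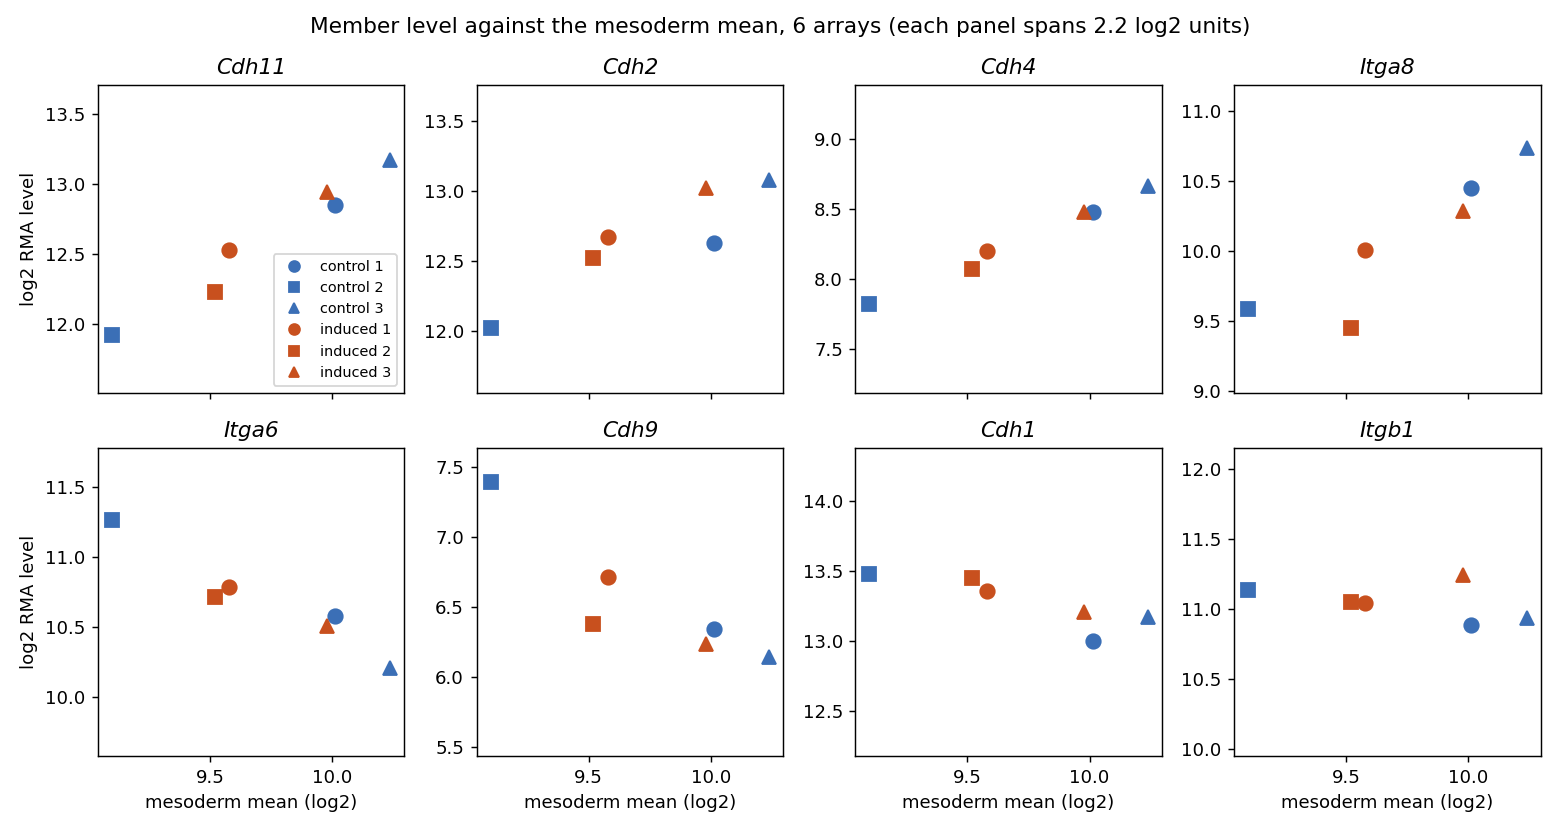
The x axis is the mesoderm mean and the y axis the log2 level of 8 members, with the 3 controls in blue and the 3 induced samples in orange; all panels span the same number of log2 units. Cdh11, Cdh2, Cdh4 and Itga8 climb from control 2 at the left to control 3 at the right, with induced 2 below control 2 for Itga8 and control 1 below its neighbours for Cdh2 and Cdh11, Itga6 and Cdh9 run down, Cdh1 (slope -0.36) runs down less steeply, and Itgb1 (slope -0.11) lies nearly flat.

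Other members had slopes that did not pass the threshold. Cdh1 had a slope of -0.36 ± 0.12 (SE; limma adjusted p = 0.219) and Cdh3 of -0.25 ± 0.12 (0.426). Cdh10, a further neural cadherin, had a slope of -0.56 ± 0.14 (0.0776) and Cdh13 of -0.37 ± 0.15 (0.336). The fibronectin receptor chain Itga5 had a slope of 0.54 ± 0.16 (0.136), Itgav of 0.36 ± 0.14 (0.311) and the laminin-binding Itga3 of -0.36 ± 0.12 (0.229). For Itgb1 the slope was -0.11 ± 0.13, with a 95% interval from -0.41 to 0.19. At an unadjusted p under 0.05 there were 12 members, 11 of them brighter than the median gene. Of all genes there were 2243, and 1566 of them were brighter than the median gene. Itga2b had a slope of 0.011 ± 0.16 and Itgb3 of 0.089 ± 0.12.

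**Figure D4:**
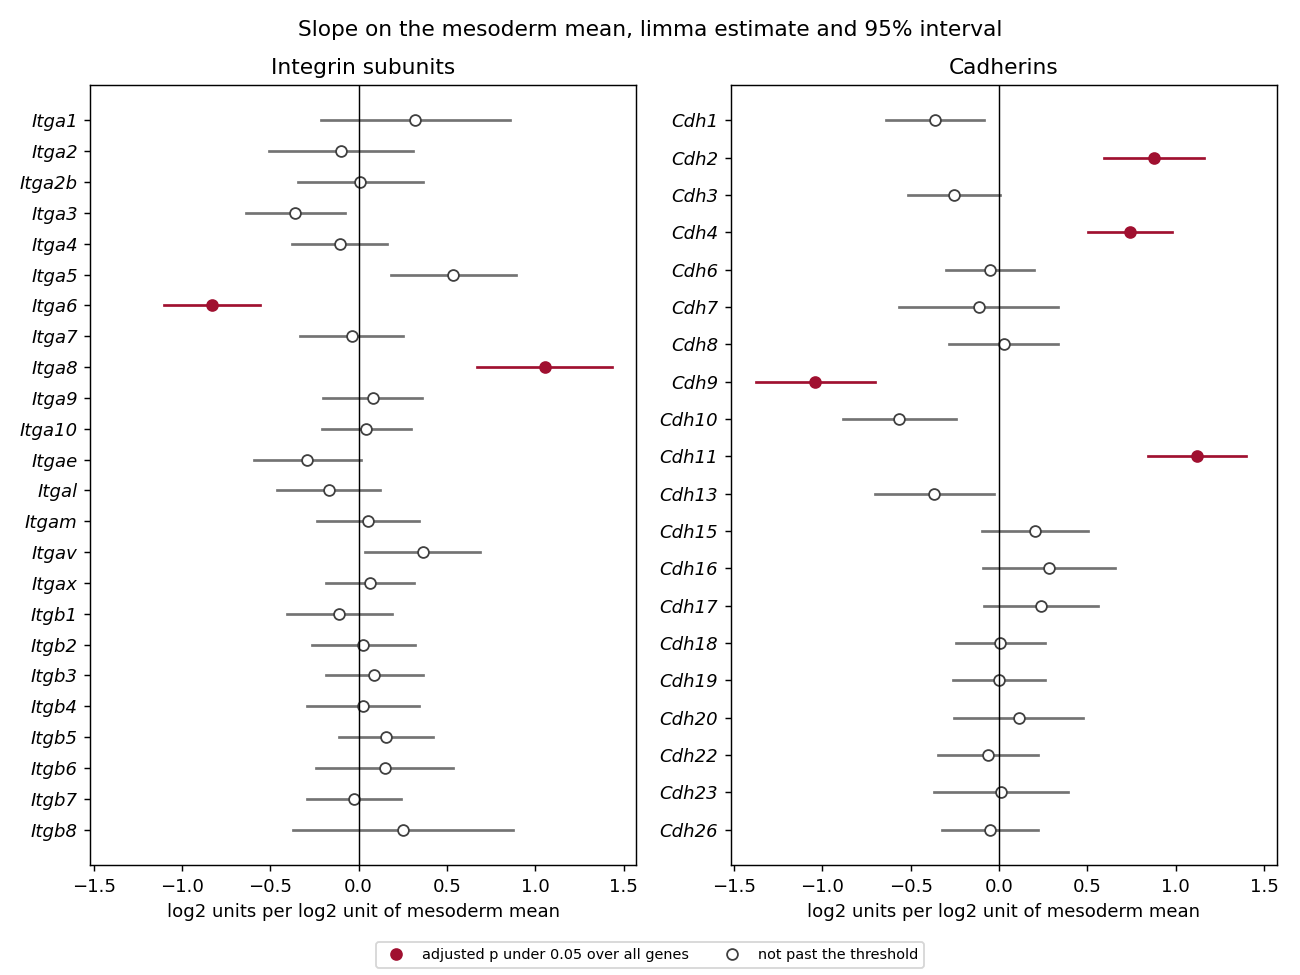
The x axis is the slope on the mesoderm mean with limma's 95% interval, in log2 units of the gene per log2 unit of the mean. Filled red points are the 6 members past the adjusted threshold: Cdh2, Cdh4, Cdh11 and Itga8 to the right of 0, Cdh9 and Itga6 to the left.

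The 6 calls, more than the sizes of the slopes, changed when a control was left out. Without control 2, whose mesoderm mean was the lowest, no member passed (smallest limma adjusted p = 0.212) and 44 genes did in all. The slopes were then 1.36 for Cdh11, 1.39 for Itga8, 1.17 for Cdh2 and 0.81 for Cdh4, each larger than over 6 arrays, and -0.73 for Itga6 and -0.68 for Cdh9, each closer to 0. Without control 3, whose mesoderm mean was the highest, no member passed (smallest adjusted p = 0.0530) and 98 genes did. The slopes were then 1.098 for Cdh11, 1.05 for Itga8, 0.74 for both Cdh2 and Cdh4, -0.71 for Itga6 and -1.03 for Cdh9. Without control 1, Cdh9 (slope -1.02, adjusted p = 0.0547) and Itga8 (1.08, 0.0663) missed the threshold with slopes close to those over 6 arrays. With the replicate number as a block, a fit that leaves 1 residual degree of freedom among the samples, Cdh2 (slope 0.63, adjusted p = 0.0823), Cdh4 (0.62, 0.0844) and Itga8 (0.39, 0.320) no longer passed, Cdh11, Cdh9 and Itga6 still did, and Cdh10, Cdh16, Itga1, Itga5, Itgb6 and Itgb8 joined them, in a total of 1033 genes against 566.

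Over the 6 arrays and without a group term, Pearson's r with the mesoderm mean was 0.984 for Cdh11 (exact permutation p = 0.0028, two-sided, adjusted 0.243; Spearman's rho = 0.943, p = 0.0167, adjusted 0.300). It was 0.995 for Cdh4 (p = 0.0014, the smallest the permutations can give, adjusted 0.243; rho = 1.00, p = 0.0028, adjusted 0.269) and -0.965 for Itga6 (exact p = 0.0056, adjusted 0.253; rho = -0.886, p = 0.0333, adjusted 0.323). For Cdh2 it was 0.911 (exact p = 0.0125, adjusted 0.290; rho = 0.829, p = 0.0583, adjusted 0.410), for Itga8 0.907 (exact p = 0.0167, adjusted 0.309; rho = 0.943, p = 0.0167, adjusted 0.300) and for Cdh9 -0.898 (exact p = 0.0097, adjusted 0.274; rho = -0.886, p = 0.0333, adjusted 0.323). The adjustment ran over all 18169 relations computed, of which 0 passed 0.05. Without controls 2 and 3, whose mesoderm means lay farthest from the middle of the 6, r came to 0.944 for Cdh11, 0.983 for Cdh4, -0.915 for Itga6, 0.891 for Itga8, 0.594 for Cdh2 and -0.654 for Cdh9. This r changed most for Cdh2 and Cdh9, and it set control 1 beside the 3 induced samples without a group term. Within the induced samples alone the slope was 0.998 for Cdh2 and -0.644 for Cdh9. Within the controls alone it was 0.858 and -1.108.

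Different probe sets of a gene were in part at odds. Cdh11 has 2 probe sets, with slopes of 1.12 and 1.69 (adjusted p = 0.0084 and 0.0111 in a fit of all named probe sets, chosen after the data were seen), and Cdh2 has 2, with slopes of 0.88 and 1.24 (0.0212 and 0.0059). Of the 3 probe sets of Cdh4, the brighter ones had slopes of 0.74 and 0.85 and the dimmest, at a mean level of 4.96, had -0.044. Itga8 has a bright probe set with a slope of 1.05 and a dimmer one, at 7.45, with -0.021. Itga6 had slopes of -0.83 and -0.48, of which the second did not pass (adjusted p = 0.236). Itgav had 5 probe sets with slopes from -0.40 to 0.36, and Itga5 had 4 with slopes from -0.074 to 0.59. Of the 24 members with several probe sets, the sign of the slope was shared by all probe sets in 6 and the sign of the group fold change in 10.

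Other genes of the adhesion machinery give the surroundings of these receptors. None of the integrin adaptors, catenins, ligands or Snail-type repressors passed the threshold between induced and control samples. On the mesoderm mean, 5 of 22 measured integrin ligands had a positive slope past the threshold and 0 a negative one. Over all genes the shares were 1.4% and 1.71%. Fibronectin (Fn1), the ligand of Itga5, Itgav and Itga8, had a slope of 1.08 ± 0.11 (SE; limma adjusted p = 0.0012), with levels of 13.74, 12.80 and 14.09 in controls and 13.56, 13.46 and 13.90 after induction. Lama1, a laminin chain of early basement membranes, had 1.01 ± 0.14 (0.0057), and Col4a1, a basement membrane collagen, 0.92 ± 0.15 (0.0115). Other ligands ran the other way without passing the threshold. Among them were the laminin chains Lamc1, with -0.47 ± 0.15 (0.180), and Lama5, with -0.39 ± 0.17 (0.394). Madcam1 had -0.44 ± 0.13 (0.154) and Thbs1 -0.37 ± 0.13 (0.238).

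Of the 5 factors that repress cadherin genes, 3 had positive slopes past the threshold, against 1.4% of all genes. Snai1, which represses Cdh1, had 1.19 ± 0.13 (SE; limma adjusted p = 0.0018), with levels of 9.97, 8.78 and 10.20 in controls and 9.18, 8.90 and 9.35 after induction. Twist1 had 0.82 ± 0.14 and Zeb1 0.72 ± 0.11. Of 21 measured integrin adaptors 1 passed, the parvin Parvb, with 1.08 ± 0.20 (0.023). Of 11 catenins and cadherin adaptors 0 passed in limma, at an unadjusted p under 0.05 only Ctnnd2. Beta-catenin (Ctnnb1), the link between cadherins and alpha-catenin, ranged over controls and induced samples from 13.86 to 13.93, and alpha-catenin (Ctnna1) from 13.05 to 13.20.

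Among the marker lists of other cells, calls on the mesoderm mean were mostly in the pluripotency list. Of 11 pluripotency genes 6 had a negative slope past the threshold and 0 a positive one, against 1.71% and 1.4% of all genes. The mean level of the pluripotency list ran from 9.89 to 10.64 in controls and from 10.16 to 10.30 in induced samples. A single negative slope passed among 8 visceral endoderm markers (Apoe), among 7 neuroectoderm markers (Sox3) and among 8 leukocyte markers (Coro1a), with 0 positive in these lists. Of the 12 endothelial and 5 measured platelet markers 0 passed in limma in either direction. The mean level of the visceral endoderm list ran from 7.88 to 8.10 in controls and 7.99 to 8.24 in induced samples, and that of the neuroectoderm list from 8.76 to 9.07 and from 8.79 to 9.05. Kdr, the gene of the sorted protein, had a slope of 2.17 ± 0.17 (SE). The part of each in the slopes of the cadherins and integrins was not tested.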

How the data were processed

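Total RNA of 6 sorted samples, 3 control and 3 induced, was measured on Affymetrix mouse arrays. The deposited table holds log2 expression values, for which the submitters' processing notes name RMA as the authors' method. As to its version, it was not given in the sources used here. RMA combines the probes of a probe set and makes the arrays share 1 distribution, and its values can compress small changes at low levels. Of 45101 probe sets, 35890 had an annotation entry, 932 of these with several symbols and 13 of them control probe sets set aside, and 34945 with 1 symbol were used. Each of 18193 genes was taken from its brightest probe set by the mean of the 6 arrays. All 44 members were found in RefSeq with unchanged symbols, and no filter on low values was applied.

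Groups were compared with limma 3.58.1 in R 4.3.3 (lmFit and eBayes), with Benjamini-Hochberg adjustment over all genes, a threshold of 0.05 and intervals at 95%. A further fit held the group and the mesoderm mean. The fits were run on simulated data with independent noise of the same size for every gene and array. The simulated arrays held no noise shared by a whole array, so they are no check of the slopes against it. The alternatives were the replicate number as a block, a filter on level, other probe set rules, normalization, centring, array weights, covariates, and leaving out each sample. Samples of the same number deviated together (r = 0.16, 0.22 and 0.41 over genes, for numbers 1, 2 and 3). However, 2 of the 3 controls correlated better with another number, control 2 with induced 1 (0.30) and control 1 with induced 3 (0.24). The labels do not say whether the numbers pair the samples. The numbers were therefore taken as pairs only in the fit with the replicate block, and the reported fits are unpaired. The text names the 14 members of a role list, those whose groups did not overlap, those past the slope threshold, and others chosen after their values were seen. The members and lists were chosen with earlier results of these data known.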

Additional observations from a re-analysis of the deposited data

How the results depend on the processing

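The count of members past the threshold between the groups was 0 in limma under every alternative run, while the count of all genes was 1 as reported, 2 with the replicate block, 6 with array weights, 5 with the mesoderm mean as a covariate and 0 to 3 with 1 sample left out. Genes related to the mesoderm mean numbered 566 as reported, 1033 with the replicate block, 351 with the most variable probe set, 371 with the pluripotency mean and 44 to 903 with 1 sample left out; members numbered 6, and 0 to 8 with 1 sample left out. Itga8 also lost its call with the mean of its probe sets (0.57) and with the pluripotency mean (1.60). Signs turned for fold changes that had not passed: Cdh11 to 0.012 with array weights and 0.021 with the covariate; Cdh4 to 0.029 with the most variable probe set and 0.013 with the mean of probe sets; Itgav to 0.16 and 0.055 and Itgb3 to 0.14 and 0.045 under the same 2 rules; and Itga6 to 0.047 with quantile normalization. Slopes that had not passed turned for Itga2b (-0.012 with no group term), Itgav (-0.0018 with the block, -0.35 with the most variable probe set, -0.028 with the mean), Itgb3 (-0.092 with the most variable probe set) and Itgb7 (0.14 with the block, 0.011 with centred arrays). With 1 sample left out, fold changes that turned ran from -0.45 to 0.18 for Cdh11, -0.12 to 0.41 for Cdh2, -0.32 to 0.096 for Cdh4, -0.43 to 0.20 for Cdh9, -0.0021 to 0.11 for Itga4, -0.38 to 0.026 for Itga5, -0.25 to 0.28 for Itga6 and -0.099 to 0.0091 for Itgb3. Slopes that turned ran from -0.31 to 0.093 for Cdh3, -0.41 to 0.094 for Itga2b, -0.23 to 0.023 for Itga4, -0.021 to 0.093 for Itgax, -0.21 to 0.42 for Itgb1, -0.19 to 0.16 for Itgb3 and -0.086 to 0.054 for Itgb7. The median fold change of the members was -0.0021 without induced 2. The cause of these changes was not tested. The number of arrays limits all of these values.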

Other observations

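Several members lie next to each other in the RefSeq gene order (GRCm38.p6) with 0 protein-coding genes between them. On chromosome 8, Cdh11 had a slope of 1.12 and its neighbour Cdh8 0.025. On chromosome 15, Cdh6, Cdh9 and Cdh10 follow each other, with slopes of -0.051, -1.04 and -0.56. Cdh3 and Cdh1 on chromosome 8 had -0.25 and -0.36, and Itgam and Itgax on chromosome 7 had 0.054 and 0.064. Itga2 and Itga1 on chromosome 13 had -0.10 and 0.32, and Cdh7 and Cdh19 on chromosome 1 had -0.12 and -0.00081. The difference between neighbours was not tested.

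Induced 2 was the highest array for 19 of the 44 members (43.2%) and for 31.8% of all genes. Among the 29 members below the median level of all genes it was the highest for 15 (51.7%), against 52.9% of the genes at such levels. Among the 15 members above that level it was the highest for 4 (26.7%), against 10.6% of such genes. These shares were not tested against each other. It was also the highest array for Ptprc (5.82) and for Itga2b (9.42).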
